A study of Danio rerio with 30 samples.

Results

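The microRNAs (miRNAs) miR-17, 18, 19, 20 and 93 were followed in small RNA from zebrafish spleen, taking every row of the count table that carries the zebrafish prefix dre- and one of these family names. The table lists 20 such rows, 16 of them with a count in any library, out of 1591 rows with a count in all. The 4 rows at 0 in all 30 libraries were miR-19a-5p, 19b-5p, 19c-5p and 20b-3p. The spleens came from AB strain adults, 100 days after fertilisation, from fish linked to incubation at 24, 28 or 32 °C. LPS fish had received 2 µl of Pseudomonas aeruginosa lipopolysaccharide (LPS, a bacterial outer-membrane component that triggers inflammation) at 50 mg/ml into the body cavity, with spleens taken 12 h later, and controls had no LPS. Each of the 6 groups (LPS 24 °C, control 24 °C, LPS 28 °C, control 28 °C, LPS 32 °C and control 32 °C) held 5 libraries. All embryos and larvae were kept at their group's temperature and adults at 28 °C, and the labels do not make clear whether those adults are the sampled fish or their parents. The sources used here do not give whether controls were injected with anything, the sex of the fish or whether each library is a separate fish. P-values therefore measure only the spread between these samples.

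These miRNAs are known from the miR-17-92 cluster, a set of hairpins cut from a shared primary transcript, and from its duplicated copies elsewhere in vertebrate genomes. Each hairpin gives a 5p and a 3p strand, of which usually only the guide strand is loaded into Argonaute to repress messenger RNAs that match its seed, the short stretch near its 5′ end. miR-17, 20 and 93 share a seed, miR-18 has a closely related one, and miR-19 and miR-92 each have another. In mice the cluster is needed for normal B cell development, and its excess in lymphocytes represses the pro-apoptotic Bim. The spleen holds lymphocytes, macrophages, blood cells and stroma, so in these bulk samples fewer cells of a type and less RNA per cell cannot be told apart.

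The whole libraries held 199431 to 7584818 counts (median 695337), so the upper limit that a count of 0 allows, taken as 3 counts, ran from 15.0 down to 0.396 CPM (counts scaled to a common total per library). Depth differed with temperature, with medians of 352754 counts at 24 °C, 697494 at 28 °C and 1066364 at 32 °C. The leukocyte miRNAs (miR-142, miR-223, miR-150, miR-181 and miR-155) held 1.18 to 5.69% of the counts of every library. Liver miR-122 reached up to 3.86%, gut and epithelial miRNAs 1.37%, pancreas miRNAs 0.94% and striated muscle miRNAs 0.438%. In LPS 32 °C the highest miR-122 share (3.86%) exceeded the highest leukocyte share (3.59%). The same held in control 32 °C (2.86% against 2.53%). Both libraries with most counts stood apart, LPS 32 °C replicate 5 and control 32 °C replicate 7. Vascular and stromal miRNAs (miR-126, miR-143, miR-145, miR-199 and miR-214) held 8.37% of the counts of LPS 32 °C replicate 5 and 17.5% of those of control 32 °C replicate 7, against a median of 2.49% over all libraries. Red cell and thrombocyte miRNAs (miR-144, miR-451 and miR-486) held 2.01% of LPS 32 °C replicate 5 and 5.19% of control 32 °C replicate 7, against a median of 0.418%. The results that turn most on these libraries are also given without them, and the part of their marker levels in the results was not tested.

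The 16 rows together were rare. They held 29903 of 39070530 counts, 0.0765%, and 48.5% of those 29903 counts lay in the same libraries, LPS 32 °C replicate 5 and control 32 °C replicate 7, which hold 34.7% of all counts. Their share of a library's counts averaged 0.0628 ± 0.0293% in LPS 24 °C and 0.0688 ± 0.0232% in control 24 °C, 0.0441 ± 0.0331% in LPS 28 °C and 0.0624 ± 0.026% in control 28 °C, and 0.0825 ± 0.0378% in LPS 32 °C and 0.0785 ± 0.0174% in control 32 °C (SD, n = 5 each). The lowest share was 0.000759%, in an LPS 28 °C library, and the highest 0.114%, in an LPS 32 °C library. The shares of LPS and control libraries overlapped at each temperature.

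Most values were 0. Of the 480 values formed by 16 rows and 30 libraries, 356 were 0, 25 were 1 to 10 counts and 93 were over 30 counts, with a median of 105.5 among the 124 values above 0. miR-19d-5p led with 9383 counts in 28 of 30 libraries and a mean of 381 CPM. miR-18c had 7755 counts in 16 libraries, of which 81.9% came from LPS 32 °C replicate 5 and control 32 °C replicate 7. miR-20a-5p had 5325 counts in 19 libraries, miR-20b-5p 3398 in 13, miR-19b-3p 1794 in 10 and miR-93 511 in 5. The 10 rows below the low-count filter of the tests were miR-19d-3p (426 counts in 5 libraries), miR-19c-3p (300 in 5), miR-17a-5p (281 in 4), miR-19a-3p (231 in 4), miR-18a (148 in 3), miR-20a-3p (1 to 91 a library in 4), miR-17a-2-3p (112 in 3), miR-18b-3p (83 in 3), miR-18b-5p (10 in 1) and miR-17a-3p (3 in 1). They held 5.81% of the 16 rows' counts, and 75.8% of that came from LPS 32 °C replicate 5 and control 32 °C replicate 7.

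**Figure D1:**
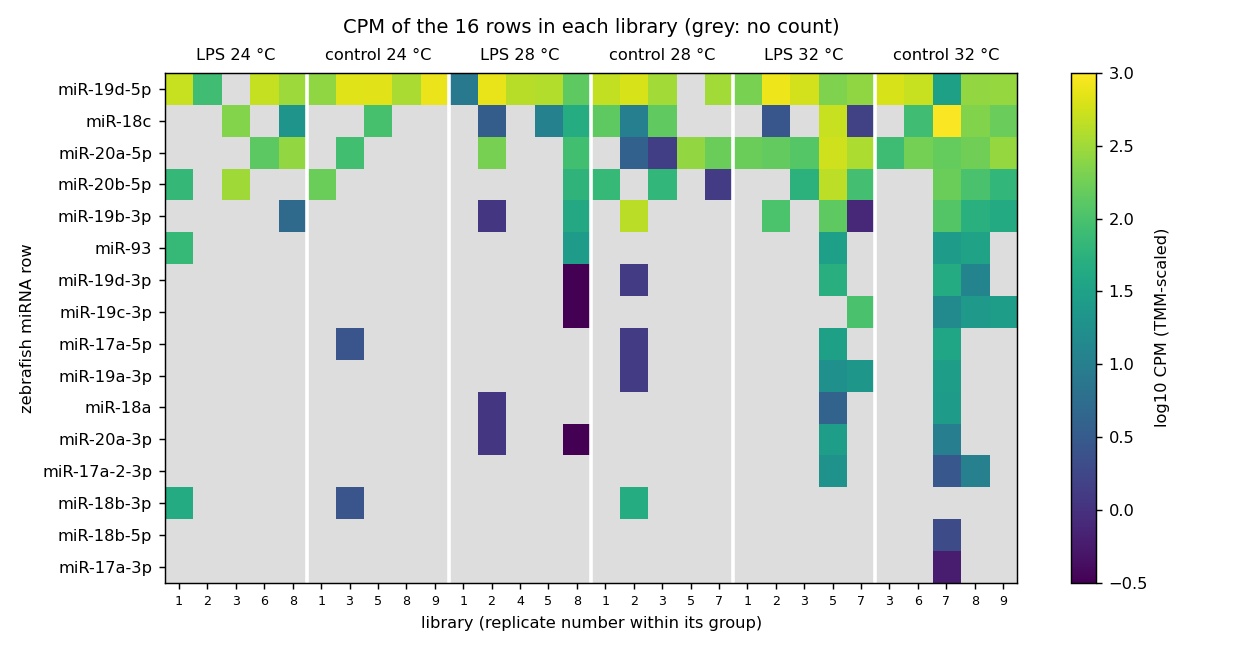
Each cell is the level of a zebrafish miRNA row (down the page, by total counts) in a library (across, grouped), coloured by log10 CPM, with grey for no count. miR-19d-5p is filled in 28 of 30 libraries and miR-20a-5p in all 10 libraries at 32 °C. Of the counts of the lower 10 rows, 75.8% lie in LPS 32 °C replicate 5 and control 32 °C replicate 7, with scattered filled cells in other libraries.

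Strand use was uneven in most hairpins with both strands listed. miR-19d gave 9383 counts from its 5p row and 426 from its 3p row, 95.7% on the 5p side (exact 95% interval 95.2 to 96.1%, counting error only), and the 5p row was the higher one in 27 of 28 libraries. The exception was control 32 °C replicate 7, with 154 counts for miR-19d-5p and 226 for miR-19d-3p. The other miR-19 hairpins had counts on the opposite strand, 1794 for miR-19b-3p, 300 for miR-19c-3p and 231 for miR-19a-3p, with 0 for each of their 5p rows, which allows at most 0.0768 CPM over all libraries. In mammals the 3p strand is the guide that carries the miR-19 seed; here the miR-19 row with most counts was a 5p row. miR-20a was 97.4% on its 5p side (96.9 to 97.8%), higher in 19 of 19 libraries, and miR-20b had 3398 counts on the 5p side and 0 on the 3p side. miR-17a gave 281 counts on its 5p side and 115 on its 3p side, 71.0% on the 5p side. Without LPS 32 °C replicate 5 and control 32 °C replicate 7 it gave 2 and 35, 5.41%, so its direction rests on these libraries. The 35 are all miR-17a-2-3p in control 32 °C replicate 8. Of the 115 counts on the 3p side 112 are miR-17a-2-3p, while the 5p row serves both miR-17a hairpins, so this is not the strand use of 1 hairpin. miR-18b gave 10 counts on its 5p side and 83 on its 3p side.

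RefSeq (assembly GRCz12tu, used for neighbours only since the build behind the files is not given) places the hairpins in 4 groups of neighbours within 10 kb. One group holds mir17a-1, mir18a, mir19a, mir20a, mir19b and mir92a-1, a second mir17a-2, mir18b and mir92a-2, another mir93, mir19d and mir25, and the last mir18c, mir20b, mir19c and mir363. Levels within these groups were far apart. The miR-17a, 18a, 18b, 19a, 19b and 20a rows summed to 8130 counts, against 5022053 for miR-92a-3p, their neighbour, which was 618 times higher and led in 30 of 30 libraries (1242.6 times higher without LPS 32 °C replicate 5 and control 32 °C replicate 7). miR-19d and miR-93 rows summed to 10320 counts, against 177664 for miR-25-3p, 17.2 times higher and again ahead in 30 of 30 libraries. miR-18c, 20b and 19c went the other way, with 11453 counts against 952 for miR-363-3p, and exceeded it in 20 libraries while miR-363-3p was ahead in 1. Reads cover whole mature miRNAs of similar length, so these levels were not scaled by length.

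**Figure D2:**
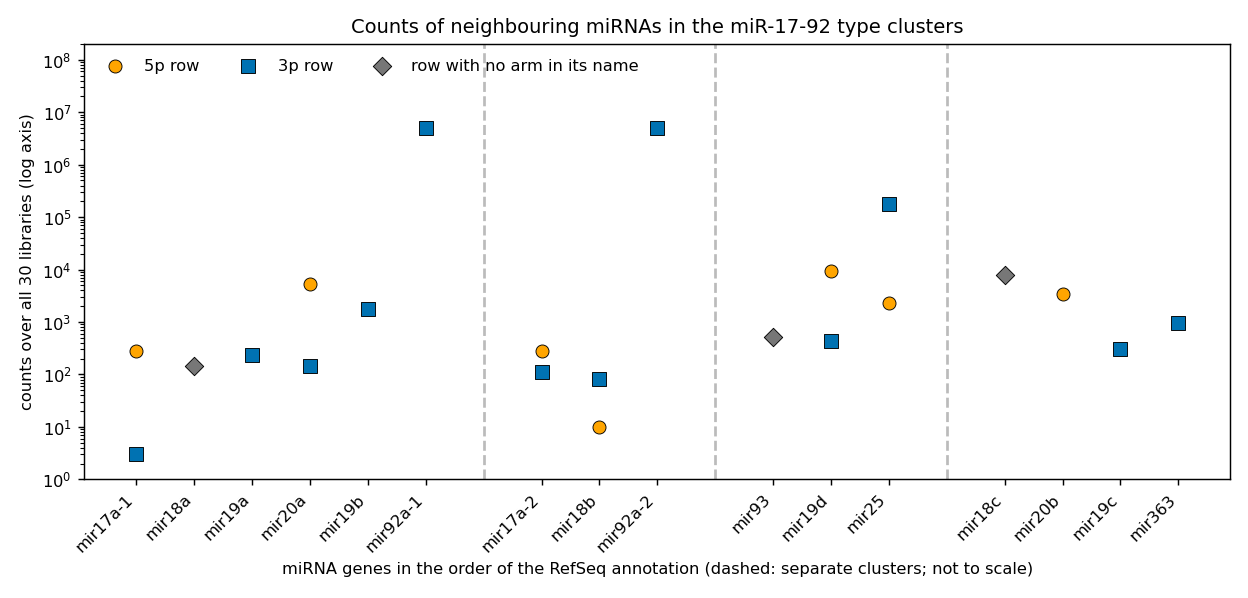
Counts over all 30 libraries (log axis) are drawn for the 5p, 3p or unspecified strand of neighbouring miRNA genes, with dashed lines between the 4 groups; miR-17a-5p and miR-92a-3p serve both of the first groups and are drawn in each. miR-92a-3p (5022053 counts) and miR-25-3p (177664) stand above their neighbours, while miR-363-3p (952) lies below miR-18c (7755) and miR-20b-5p (3398).

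LPS was compared with control to ask whether an acute inflammatory stimulus moved these miRNAs in the spleen. No difference in any of the 6 tested rows passed the threshold (adjusted p of 0.05), at any temperature or averaged over temperatures. In the average, edgeR's quasi-likelihood test called 0 of the 6 rows after Benjamini-Hochberg adjustment, against 2 of 364 rows in all (0.549%), with 1 of the 6 at an unadjusted p under 0.05, and DESeq2 and limma voom called 0 of the 6 as well. At 24 °C edgeR called 0 of 364 rows (0%, with 44 at p under 0.05 before adjustment, while DESeq2 called 21 and voom 0). None of the 6 was called there by edgeR, and miR-19b-3p alone by DESeq2. That DESeq2 call rests on 2 counts in 1 of 5 LPS libraries, against 0 counts in the 5 controls. At 28 °C edgeR called 0 of 364 (0%, with 48 unadjusted, 18 by DESeq2 and 4 by voom). At 32 °C it called 0 of 364 (0%, with 7 unadjusted, 1 by DESeq2 and 1 by voom). None of the 6 was called by any of the 3 tools at 28 or 32 °C.

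miR-19d-5p, the most widely counted row, measured 513, 84.2, 0, 486.2 and 304 CPM in LPS 24 °C, against 262, 685, 705, 357 and 793 CPM in control 24 °C. In LPS 28 °C it measured 8.16, 759, 415, 397 and 134 CPM, against 475, 622, 327, 0 and 325 CPM in control 28 °C. In LPS 32 °C the values were 200, 819, 582, 209 and 266 CPM, against 619, 509, 30.7, 271 and 277 CPM in control 32 °C. The groups overlapped at every temperature, and the libraries near 0 were single ones in LPS 24 °C, LPS 28 °C and control 28 °C. The means were 277 ± 231 CPM in LPS 24 °C and 560 ± 235 CPM in control 24 °C, 342 ± 290 in LPS 28 °C and 350 ± 231 in control 28 °C, and 415 ± 275 in LPS 32 °C and 341 ± 229 in control 32 °C (SD, n = 5 each). Averaged over temperatures the fitted log2 difference of LPS minus control was -0.25 ± 0.72 (SE; edgeR, Benjamini-Hochberg adjusted p = 0.947), and 0.18 without LPS 32 °C replicate 5.

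miR-20a-5p, a seed relative of miR-17, measured 0, 0, 0, 130 and 268 CPM in LPS 24 °C, against 0, 86.9, 0, 0 and 0 CPM in control 24 °C. In LPS 28 °C the values were 0, 191, 0, 0 and 86.9 CPM, against 0, 3.91, 1.42, 272 and 162 CPM in control 28 °C. In LPS 32 °C they were 165, 144.9, 121, 556 and 372 CPM, against 82.8, 186, 150, 173 and 280 CPM in control 32 °C. LPS and control libraries overlapped at each temperature, and every library at 32 °C had counts, whichever the treatment. The fitted log2 difference of LPS minus control averaged over temperatures was 0.73 ± 1.19 (SE; edgeR, adjusted p = 0.942), and it was 0.29 without LPS 28 °C replicate 2 and 3.15 without control 24 °C replicate 3. Leaving out control 24 °C replicate 3 leaves its group with no count, so the size of 3.15 is not well set.

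The other tested rows gave wide errors. miR-18c averaged 55.1 ± 139 CPM in LPS fish and 119 ± 239 CPM in controls (SD, n = 15 each), a log2 difference of -0.76 ± 1.33 (SE; edgeR, adjusted p = 0.942), which turned to 1.69 without control 24 °C replicate 5. No other library of that group had a count, so the size of 1.69 is not well set. miR-20b-5p, another bearer of the miR-17 seed, averaged 69.0 ± 132.6 CPM in LPS fish and 42.1 ± 60.0 CPM in controls, a log2 difference of 0.30 ± 1.38 (SE; edgeR, adjusted p = 0.975), which was -2.03 without LPS 28 °C replicate 8 and 2.99 without control 24 °C replicate 1. Each of these fits leaves a group with no count, so the sizes of -2.03 and 2.99 are not well set. miR-19b-3p was counted in 6 of 15 LPS libraries and 4 of 15 control libraries (edgeR, adjusted p = 0.942). miR-93 was counted in 3 of 15 LPS libraries and 2 of 15 control libraries. It had the smallest p of the 6 rows in the LPS average (0.0105 unadjusted, 0.231 adjusted over 364 rows by edgeR). That value rests on 1 library each in LPS 24 °C (69.0 CPM) and LPS 28 °C (26.4 CPM), against 0 in all 10 control libraries at 24 and 28 °C. Without LPS 24 °C replicate 1 the adjusted p was 0.9997. At 32 °C the fit was lower in LPS (edgeR, unadjusted p = 0.6685), with 30.1 CPM in 1 LPS library and 27.1 and 32.6 CPM in 2 of 5 controls.

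**Figure D3:**
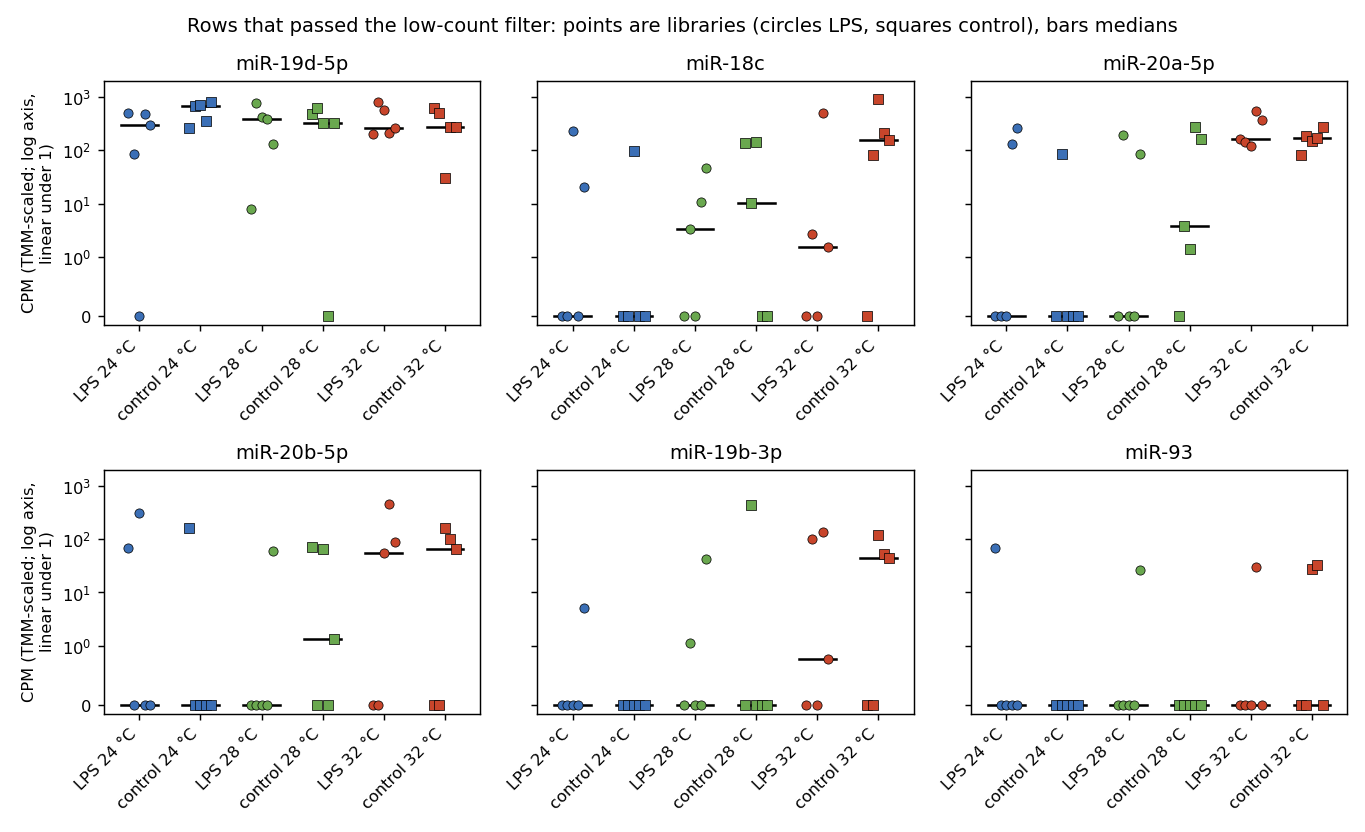
Each panel gives a tested row's CPM per library (log axis, linear under 1), with circles for LPS, squares for control and bars for medians, by group. LPS and control libraries overlap in each panel, and miR-20a-5p is at 82.8 CPM or more in all 10 libraries at 32 °C while 7 of 10 are at 0 at 24 °C.

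Incubation temperature was compared to ask whether early warmth or cold leaves a mark in the adult spleen. miR-19b-3p, which bears the miR-19 seed, was called higher at 32 than at 24 °C by edgeR, but several alternatives lost the call. It had 2 counts in 1 of 10 libraries at 24 °C, 497 counts in 3 of 10 at 28 °C and 1295 counts in 6 of 10 at 32 °C. The lowest, median and highest levels were 0, 0 and 5.15 CPM at 24 °C, 0, 0 and 437 CPM at 28 °C and 0, 22.2 and 135 CPM at 32 °C. Pooled over libraries the level was 52.4 CPM at 32 °C against 0.417 CPM at 24 °C, a ratio of 125.7 whose 95% interval of 34.7 to 1038.8 covers counting error only. The pooled level at 28 °C was 51.9 CPM, so the ratio of 32 over 28 °C was 1.01. It was 0.478 without LPS 32 °C replicate 5 and control 32 °C replicate 7. The difference of 32 minus 28 °C was not called (edgeR, adjusted p = 0.82). The single high value at 28 °C was control 28 °C replicate 2.

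The miR-19b-3p difference between 32 and 24 °C, averaged over treatments, passed the threshold (edgeR, Benjamini-Hochberg adjusted p = 0.022). With 2 counts in 1 of 10 libraries at 24 °C, the row passed the low-count filter only through libraries at 28 and 32 °C. The call is therefore not independent of that filter. The call was lost without control 32 °C replicate 7 (adjusted p = 0.0597), and without that library and LPS 32 °C replicate 5 (adjusted p = 0.0862), when the pooled ratio was 59.4. It was also lost with the log2 library total as a covariate (adjusted p = 0.28) and with limma voom (adjusted p = 0.0578). Taking the replicate number as a block (adjusted p = 0.0602) and leaving out the 4 deepest libraries (adjusted p = 0.0996) lost it as well. Of the 6 rows it was the only one called by edgeR in this comparison, where 60 of 364 rows were called (16.5%), 51 of them higher (14%). With 1 of the 6 rows called, these rows did not stand apart from that share. Of the 6 rows DESeq2 called the same one alone, among 72 of 364 rows, while voom called miR-20a-5p alone, among 103 of 364. The 60 edgeR calls over all rows became 1 with the log2 library total as a covariate. They became 16 without the 4 deepest libraries and 32 with the replicate block. The share called over all rows thus also turns on how depth is handled. The 4 miR-19 3p rows together were counted in 1, 3 and 6 of 10 libraries at 24, 28 and 32 °C, with pooled levels of 0.417, 52.3 and 91.0 CPM. At 32 °C their pooled level was 51.1 CPM, in 4 of 8 libraries, without LPS 32 °C replicate 5 and control 32 °C replicate 7.

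The summed shares of cell type markers also differed between the temperatures, and their part in the result was not tested. Over the 10 libraries each of 24, 28 and 32 °C, leukocyte miRNAs held means of 3.77 ± 1.34%, 2.82 ± 0.952% and 2.27 ± 0.628% of the counts (SD). Vascular and stromal miRNAs held 2.14 ± 0.773%, 2.25 ± 0.955% and 4.94 ± 4.9%, and 2.94% at 32 °C without LPS 32 °C replicate 5 and control 32 °C replicate 7. Liver miR-122 held 0.135 ± 0.0947%, 0.168 ± 0.22% and 0.966 ± 1.33%, and 1.06% at 32 °C without them.

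miR-20a-5p was found in more libraries at 32 °C than at 24 or 28 °C, although its edgeR test missed the threshold. It was counted in 3 of 10 libraries at 24 °C, 6 of 10 at 28 °C and 10 of 10 at 32 °C. The lowest, median and highest levels were 0, 0 and 268 CPM at 24 °C, 0, 2.67 and 272 CPM at 28 °C and 82.8, 169 and 556 CPM at 32 °C. The lowest library at 32 °C lay above 7 of 10 at 24 °C, while the highest at 24 and 28 °C lay within the range at 32 °C. Means were 48.5 ± 89.9 CPM at 24 °C, 71.7 ± 101 CPM at 28 °C and 222.9 ± 143.3 CPM at 32 °C (SD, n = 10 each), and 190 ± 92.8 CPM in the 8 libraries at 32 °C that remain without LPS 32 °C replicate 5 and control 32 °C replicate 7. The log2 difference of 32 minus 24 °C was 2.55 ± 1.46 (SE; edgeR, adjusted p = 0.246), and limma voom gave 5.42 with an adjusted p of 0.00146. Leaving out single libraries, edgeR gave 2.22 (adjusted p = 0.399) without LPS 32 °C replicate 5 and 6.17 (adjusted p = 0.022) without control 24 °C replicate 3, the only control at 24 °C with a count. The size of 6.17 is therefore not well set. For scale, the median log2 difference of 32 minus 24 °C over all 364 rows was 0.81.

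Libraries were deeper at 32 °C, and a count is more likely in a deeper library. When every library was reduced by calculation to the 199431 counts of the shallowest, the expected number of libraries with a miR-20a-5p count was 3.0 of 10 at 24 °C, 4.86 of 10 at 28 °C and 10.0 of 10 at 32 °C. For miR-19b-3p it was 0.887, 2.22 and 5.18 of 10. The number of the 16 rows counted in a library had medians of 2, 3 and 5 at 24, 28 and 32 °C as sequenced, and 2.0, 2.64 and 4.5 at equal totals. This calculation treats reads as independent molecules, which PCR copies are not, and can change little where most values are 0 or over 30 counts.

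**Figure D4:**
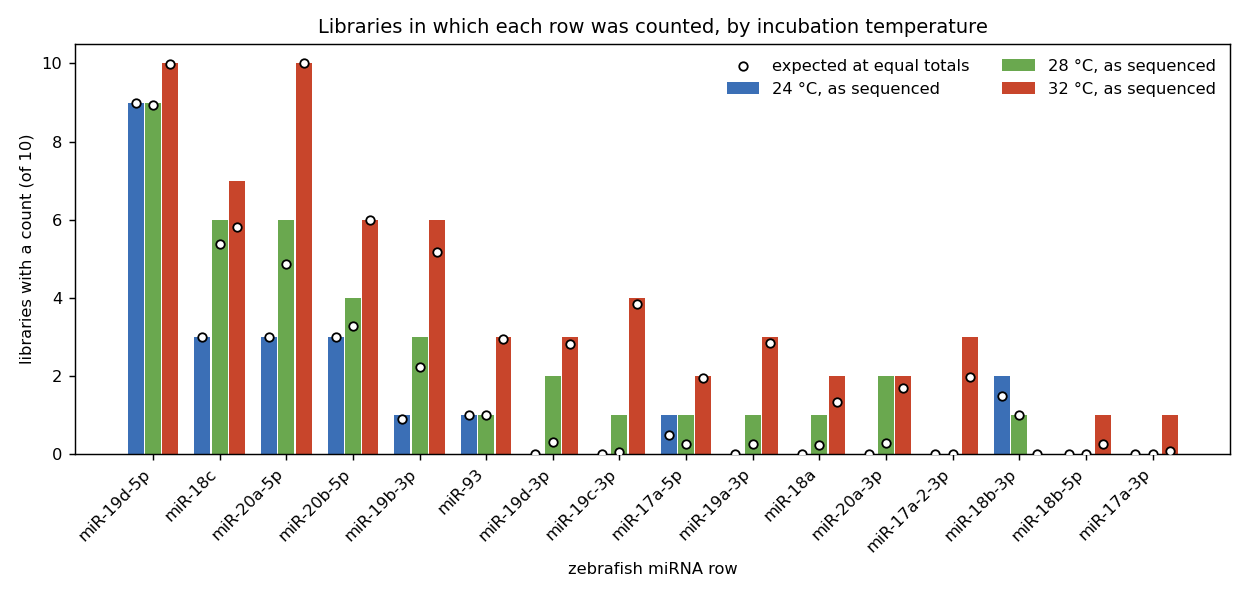
Bars give how many of 10 libraries at 24, 28 and 32 °C held a count of each row, and open circles the number expected if every library had 199431 counts. miR-20a-5p stands at 3, 6 and 10 libraries with 3.0, 4.86 and 10.0 expected, while rows such as miR-19d-3p lose nearly all detections at 28 °C.

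**Figure D5:**
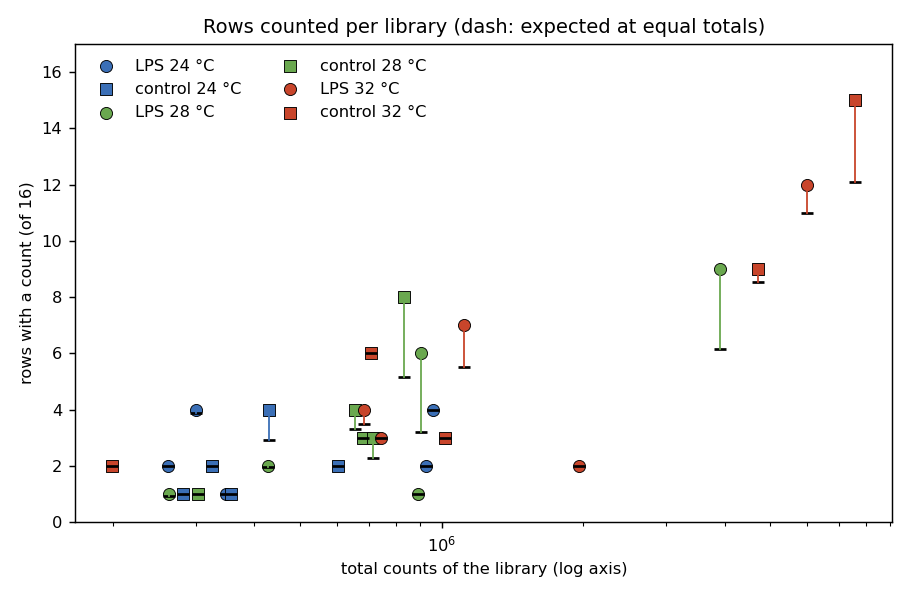
Rows counted (of 16) are plotted against a library's total counts (log axis) for LPS (circles) and control (squares) libraries, with a dash at the number expected at 199431 counts. The highest point, 15 rows, is control 32 °C replicate 7, the deepest library with 7584818 counts, and its expected number at equal totals is 12.1.

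miR-18c, miR-20b-5p and miR-93 had no called difference with temperature in edgeR with all libraries. miR-18c was counted in 3, 6 and 7 of 10 libraries and averaged 34.5 ± 74.2, 35.0 ± 56.8 and 191 ± 309 CPM at 24, 28 and 32 °C (SD, n = 10 each). Its mean at 32 °C was 57.5 ± 85.7 CPM without LPS 32 °C replicate 5 (512 CPM) and control 32 °C replicate 7 (940 CPM). The log2 difference of 32 minus 24 °C was 2.46 ± 1.62 (SE; edgeR, adjusted p = 0.32) with all libraries and -1.45 without those libraries. That fit leaves LPS 32 °C only 2 counts in each of replicates 2 and 7, so the size and direction of -1.45 are not well set. The pooled level without those libraries was 79.2 CPM at 32 °C against 26.9 CPM at 24 °C, the other direction. miR-20b-5p averaged 54.4 ± 105, 19.9 ± 31.8 and 92.3 ± 136 CPM. Its log2 difference of 32 minus 24 °C was 0.82 ± 1.68 (SE; edgeR, adjusted p = 0.78), and -0.41 without LPS 32 °C replicate 5 and control 32 °C replicate 7. miR-93 was counted in 1, 1 and 3 of 10 libraries, with pooled levels of 14.6, 10.6 and 13.7 CPM at 24, 28 and 32 °C. For 32 minus 24 °C its adjusted p (edgeR) was 0.242 with all libraries and 0.9996 without LPS 32 °C replicate 5. It was 0.0412 without LPS 24 °C replicate 1, its only library at 24 °C, a fit that leaves no count at 24 °C.

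miR-19d-5p was found in nearly all libraries at each temperature. It was counted in 9, 9 and 10 of 10 libraries and averaged 419 ± 266, 346 ± 247 and 378 ± 242 CPM at 24, 28 and 32 °C. The log2 difference of 32 minus 24 °C was -0.07 ± 0.88 (SE; edgeR, adjusted p = 0.96). It exceeded miR-20a-5p in 24 libraries and lay below it in 5.

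The remaining temperature comparisons called none of the 6 rows with edgeR. For 32 minus 28 °C averaged over treatments, 10 of 364 rows were called (2.75%), with 1 of the 6 below 0.05 before adjustment, none called by DESeq2 (31 of 364 in all) and miR-20a-5p called by voom (55 of 364). For 24 minus 28 °C, 0 of 364 were called (0%, with 55 unadjusted, 35 by DESeq2 and 5 by voom), with 1 of the 6 unadjusted and miR-19b-3p called by DESeq2. That row had 2 counts in 1 library at 24 °C and 497 in 3 libraries at 28 °C, 335 of them in control 28 °C replicate 2. The joint test of temperature called 67 of 364 (18.4%), with miR-19b-3p at an adjusted p of 0.0567, 1 of the 6 unadjusted, 0 called by DESeq2 (35 of 364 in all) and miR-20a-5p called by voom (87 of 364). The joint test of whether LPS effects differ between temperatures called 0 of 364 (0%; 44 unadjusted, 1 by DESeq2 and 2 by voom), and the smallest adjusted p of the 6 rows was 0.423, for miR-93.

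Within controls, 32 minus 24 °C called 3 of 364 rows (0.824%), with 2 of the 6 rows at an unadjusted p under 0.05 and 0 called. There DESeq2 called miR-19b-3p among 39 of 364 rows, and voom called miR-18c and miR-20a-5p among 78 of 364. Controls at 32 minus 28 °C gave 0 of 364 (0%; 75 unadjusted, 21 by DESeq2 and 45 by voom), and at 24 minus 28 °C 0 of 364 (0%; 62 unadjusted, 31 by DESeq2 and 0 by voom), each with 1 of the 6 rows at an unadjusted p under 0.05. DESeq2 called miR-19b-3p in the second of these and none of the 6 in the first, and voom called none of them in either. In controls miR-19b-3p had 0 counts at 24 °C and 335 at 28 °C, all in control 28 °C replicate 2, so that call rests on 1 library. Within LPS fish, 32 minus 24 °C called 2 of 364 (0.549%), while 32 minus 28 °C called 0 of 364 (0%; 35 unadjusted, 8 by DESeq2 and 5 by voom) and 24 minus 28 °C 0 of 364 (0%; 34 unadjusted, 14 by DESeq2 and 7 by voom). None of the 6 rows reached an unadjusted p under 0.05 in LPS fish, and DESeq2 and voom called 0 of them.

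Reads of these miRNAs may also have been assigned to rows named for other species, whose sequences can be near-identical, so zebrafish values are uncertain. The table holds 18 such rows with 11388 counts. dre-miR-93 had 511 counts in 5 libraries, and the carp row ccr-miR-93 had 6599 counts in 24 libraries, 12.9 times as many. The human and mouse rows hsa-miR-18a-3p and mmu-miR-18a-3p had 1816 counts in 22 libraries and 957 in 15, and in the 15 libraries where both were counted they differed by at most 10 counts in 8. The carp row ccr-miR-18c was counted in 0 of 10 libraries at 24 °C, 3 of 10 at 28 °C and 8 of 10 at 32 °C. Of the 4 tested rows in this list it was the only one called, higher at 32 than at 24 °C (edgeR, adjusted p = 0.00478). In that comparison 60 of 364 rows were called (16.5%), and 1 of 4 does not set this list apart from that share. ccr-miR-18c had 1405 counts at 32 °C (423 in 6 of 8 libraries without LPS 32 °C replicate 5 and control 32 °C replicate 7) against 0 counts at 24 °C. It thus passed the low-count filter only through libraries at 28 and 32 °C, and its call is not independent of that filter. Of these 4 rows the carp rows ccr-miR-18c and ccr-miR-93 were higher at 32 than at 24 °C in the fit. The human and mouse rows, which bear the same miRNA name, were lower. Their log2 differences were -3.22 and -2.80 (edgeR, adjusted p = 0.121 and 0.248), against a median of 0.81 over all rows.

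A further list took the rows named miR-92, miR-25, miR-363 and miR-106. Its 18 rows held 5282175 counts, of which miR-92a-3p held 5022053 and miR-25-3p 177664. miR-363-3p had 952 counts, fewer than the 11453 of its neighbours miR-18c, 20b and 19c. The groups of neighbours given above hold no miR-92b or miR-106 gene. The list also includes ola-miR-92b, a row named for another species. None of the 8 tested rows was called for LPS minus control averaged over temperatures or for any temperature pair averaged over treatments. The joint test of temperature called 1 of the 8, miR-363-3p (edgeR, adjusted p = 0.0245), against 67 of 364 rows in all (18.4%). With 1 of the 8 called, these rows did not stand apart from that share. miR-363-3p was counted in 2, 3 and 5 of 10 libraries at 24, 28 and 32 °C, with 86, 5 and 861 counts. Without LPS 32 °C replicate 5 and control 32 °C replicate 7 it had 104 counts in 3 libraries at 32 °C. In the fit 3 of the 8 tested rows were higher at 32 than at 24 °C. The median log2 difference of the 8 was -0.43, against 0.81 over all rows. miR-92a-3p averaged 197877 ± 59295, 208141 ± 112009 and 152851 ± 111545 CPM at 24, 28 and 32 °C, with a log2 difference of 32 minus 24 °C of -0.42 ± 0.35 (SE; edgeR, adjusted p = 0.436). miR-92a-5p, the opposite strand of miR-92a-3p, averaged 70.1 ± 117, 69.4 ± 115 and 213 ± 153 CPM and was counted in 5, 6 and 10 of 10 libraries.

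The patterns most like those of the 2 rows with most CPM were sought among 93 zebrafish rows of at least 100 CPM, by the median absolute difference of row-centred log2 CPM over 30 libraries. For miR-19d-5p the nearest were miR-27b-3p (0.658), miR-128-5p (0.665) and miR-30c-3p (0.748), against a median of 1.63 over the candidates. For miR-20a-5p the nearest were miR-103 (0.727), miR-92a-5p (0.781) and miR-1388-5p (0.798), against a median of 2.81.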

How the data were processed

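Per the labels' protocols, each library took 50 ng of RNA through a NEXTflex v3 small RNA kit (adapters with 4 random bases) and a PCR of 22 cycles. Tools named in the submitters' processing notes, with no role stated, are cutadapt 1.12, FastQC 0.11.5, bcl2fastq and DESeq2 1.11.1; the sources used here give no aligner, counter, genome build or miRNA reference. The authors deposited whole-number counts per miRNA row and library. Nothing records that random bases served to collapse PCR duplicates, so intervals and floors cover counting error only. No sequences are printed.

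Rows were kept by filterByExpr of edgeR 4.0.16 (R 4.3.3) on the 6 groups, leaving 364 rows, scaled with TMM (factors 0.535 to 1.49) and fitted with the robust quasi-likelihood method, 1 mean per group and 24 residual degrees of freedom. P-values were adjusted over the 364 rows by Benjamini-Hochberg, with a threshold of 0.05. CPM are TMM-scaled. Log2 differences and their SE come from the fit. With all libraries they are not given against groups with 3 counts or fewer. Fits that leave out libraries can leave a group with no count, and the size of such a log2 difference is not well set. Strand shares have exact (Clopper-Pearson) 95% intervals. Detection at equal totals is the hypergeometric expectation at 199431 counts. Alternatives were DESeq2 1.42.0, limma 3.58.1 voom with library weights, RLE and total-count scaling, other low-count filters, the log2 library total as covariate, thinned libraries, zebrafish rows alone, rows summed over species, only the groups compared, a replicate block, and leaving out libraries. In chi-squared tests on 60 library pairs within groups, the statistic per degree of freedom was at least 90.8, so no pair was taken as a repeat deposit. All 16 rows are named; values in every sample are given for rows averaging 100 CPM or more. The members and lists were chosen with earlier results of these data known.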

Additional observations from a re-analysis of the deposited data

Results flagged for a closer look

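Within a group of 5 libraries, a library was singled out when its gap to the nearest other exceeded 0.71 of the group's range (Dixon's 95% value). Of 39 group checks, 17 met this. Chance gives about 1 in 20 for normally spread values, which these are not: in 9 of the 17 the other 4 libraries were at 0, which meets the rule by construction, so the number is a description only. Causes were not tested.

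For miR-18c the library far above the rest of its group was LPS 24 °C replicate 3 (227.5 CPM), control 24 °C replicate 5 (96.5), LPS 28 °C replicate 8 (47.0), LPS 32 °C replicate 5 (512) and control 32 °C replicate 7 (940). For miR-20b-5p it was LPS 24 °C replicate 3 (313 CPM), control 24 °C replicate 1 (163), LPS 28 °C replicate 8 (60.2) and LPS 32 °C replicate 5 (447). miR-19b-3p stood out in LPS 24 °C replicate 8 (5.15 CPM, from 2 counts), LPS 28 °C replicate 8 (41.6) and control 28 °C replicate 2 (437). miR-93 did so in LPS 24 °C replicate 1 (69.0 CPM), LPS 28 °C replicate 8 (26.4) and LPS 32 °C replicate 5 (30.1), and miR-20a-5p in control 24 °C replicate 3 (86.9 CPM). LPS 28 °C replicate 8 and LPS 32 °C replicate 5 appear for 4 and 3 rows. The share of counts in the 16 rows was far below its group in LPS 24 °C replicate 2 (0.0106%).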

How the results depend on the processing

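The number of these rows called kept to the value given above in 625 of 657 alternatives over 15 comparisons. The rows tested differed between alternatives, with 16 for no low-count filter, 5 for thinned libraries and 2 for the stricter filter. A fit of only the groups compared tested 1 row for LPS minus control at 24 and at 28 °C. Some kept values of 0 therefore come from few rows. A fit of only the groups compared was not run for the LPS average and the joint tests, which use all 6 groups. For 32 minus 24 °C the count of 1 became 0 with the log2 library total as covariate and without the 4 deepest libraries. It was 0 without the 2 libraries with most counts of these rows (added after seeing the data). Without single libraries it was 0 to 2. It was 0 without control 32 °C replicate 7 and 2 without LPS 24 °C replicate 1 or control 24 °C replicate 3. The fits that gave 2 leave a 24 °C group with no count of the row they add (miR-93 and miR-20a-5p). The stricter filter also gave 0, as miR-19b-3p was left untested. DESeq2 called 1 of the 6 for LPS minus control at 24 °C, for 24 minus 28 °C averaged over treatments and in controls, and for 32 minus 24 °C in controls. Each call was of miR-19b-3p, which had 2 counts in 1 of 10 libraries at 24 °C. For 32 minus 24 °C in controls voom called 2. It called 1 for 32 minus 28 °C and in the joint test of temperature. The covariate gave 1 for 32 minus 24 °C in LPS fish. The joint test of temperature called 5 of the 16 rows with no low-count filter. Leaving out single libraries gave 0 to 1 for 32 minus 28 °C (1 without LPS 28 °C replicate 8), 0 to 1 for 24 minus 28 °C (1 without control 32 °C replicate 3) and 0 to 2 for the joint test, where leaving out any of 13 libraries gave 1 or 2.

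The labels do not say whether replicate numbers shared by groups pair the libraries, and pairing was not tested. Same-numbered pairs correlated at a mean of 0.0645 (43 pairs, -0.117 to 0.408, 13 over 0.1), against -0.00831 for 332 other pairs. With a replicate block the count for 32 minus 24 °C was 0, with miR-19b-3p at an adjusted p of 0.0602. That row kept its call in 37 of 43 alternatives, and without the 4 deepest libraries its adjusted p was 0.0996.

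The log2 difference of LPS minus control for miR-20b-5p turned negative with voom (-1.37), the covariate (-0.43), without the 4 deepest (-1.57) and without the 2 libraries (-0.013), and ran from -2.03 to 2.99 when single libraries were left out; it ran from -2.62 to 1.69 for miR-18c, 0.29 to 3.15 for miR-20a-5p and -0.37 to 0.18 for miR-19d-5p. For 32 minus 24 °C miR-18c gave -2.48 with the covariate, -1.81 without the 4 deepest and -1.45 without the 2 libraries, and -0.94 to 5.46 without single libraries, where miR-20a-5p gave 2.22 to 6.17. miR-20b-5p gave -0.017 with total-count scaling, -2.60 with the covariate, -0.059 with zebrafish rows alone, -1.06 without the 4 deepest and -0.41 without the 2 libraries, and -0.066 to 4.45. miR-19d-5p gave 0.031 with voom, 0.32 with no filter, 0.11 with the covariate, 0.047 with thinned libraries, 0.35 without the 4 deepest and 0.16 without the 2 libraries, and -0.25 to 0.44. The cause of these turns was not tested. Some of these fits leave a group with no count, so the sizes they give are not well set. They are the fits of miR-18c without control 24 °C replicate 5 and of miR-20a-5p without control 24 °C replicate 3. Those of miR-20b-5p without control 24 °C replicate 1 are others. So are its LPS minus control values without LPS 28 °C replicate 8 and without the 4 deepest libraries. With rows of the same names from other species the share of counts averaged 0.0968% in LPS 24 °C and 0.109% in control 24 °C. It averaged 0.0571% in LPS 28 °C, 0.0916% in control 28 °C, 0.112% in LPS 32 °C and 0.0966% in control 32 °C. By temperature these means were 0.103, 0.0743 and 0.105% at 24, 28 and 32 °C, against 0.0658, 0.0532 and 0.0805% for zebrafish rows alone. Shallow libraries limit all of this: a count of 0 allows up to 15.0 CPM in the shallowest, and 10 of the 16 rows had too few counts to test.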
